A study of Mus musculus with 2 samples.

Results

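The BMP and TGF-beta pathway was followed here in the stomach of newborn mice through 40 of its genes, out of 43346 Ensembl genes in the tables. The genes were taken from a fixed list by symbol: the protease gene Bmp1, 6 BMP ligands, 3 TGF-beta ligands, 2 activin and inhibin subunits, 5 type I and 4 type II receptors, a co-receptor and a decoy receptor, 4 secreted antagonists with the related Fstl1, 8 Smads and 4 Id genes. All 40 were found, and all are annotated as protein coding.

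Total RNA was sequenced from the whole stomach of 2 pups of strain B6NCrl on the day of birth (postnatal day 0), 1 library per pup. Both pups came from the same dam, carried the same donor identifier in the labels, and had no recorded sex and no treatment, so there was 1 group and no condition to compare. The input was 10 ng of RNA longer than 200 nucleotides per pup, with spike-in controls. Summed expected counts were 51524479 for pup 1 and 49983574 for pup 2. Markers of the tissue were present: Tff1, a trefoil peptide of gastric surface cells, reached 12874 TPM in the first pup and 13022 in the second. Barx1, a transcription factor of stomach mesenchyme, had a TPM of 141 and 172. Nkx2-5, a gene of the pyloric mesenchyme, was below 1 TPM in both pups (0.78 and 0.14), and so were all 3 lung markers.

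Ligands of this family bind pairs of type I and type II receptor kinases. The type II receptor activates the type I receptor, which phosphorylates receptor-activated Smads; these enter the nucleus with the common Smad4 and change the transcription of targets such as the Id genes, inhibitors of basic helix-loop-helix transcription factors. BMPs signal through Smad1, Smad5 and Smad9, TGF-betas and activins through Smad2 and Smad3, and secreted antagonists hold the ligands off their receptors. In the developing stomach, BMP signals between mesenchyme and epithelium are known for their part in patterning the glandular region and the pyloric sphincter.

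Levels are TPM, transcript abundance scaled to transcript length and library total, so genes can be compared with each other. The interval in parentheses after a TPM is the deposited credibility interval of the quantification, whose level the sources do not give; it covers counting and read assignment, not differences between animals. Values are given for pup 1 and then pup 2, and mean ± SD is over both pups (n = 2). With 1 animal per library, no test between pups was possible, and a difference between them is a difference between libraries. In whole tissue, fewer cells of a type and less RNA per cell cannot be told apart. Positions are on mm10.

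The newborn stomach held RNA of nearly every gene of the list. Of the 40 genes, 38 reached 1 TPM in each pup and were called detected, beside 61.2% of all 21474 protein-coding genes. The other two, Inhbb and Smad9, had 96 and 99, and 105 and 157, expected counts. The median level of the 40 genes was a TPM of 6.95 and 7.50 (7.19 for the mean of both pups), beside 3.60 for all protein-coding genes and 13.1 for those detected in both pups. Levels were very unequal. Id2, Fstl1, Id3 and Id1 together held 74.0% and 71.2% of the summed TPM of the 40 genes.

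**Figure D1:**
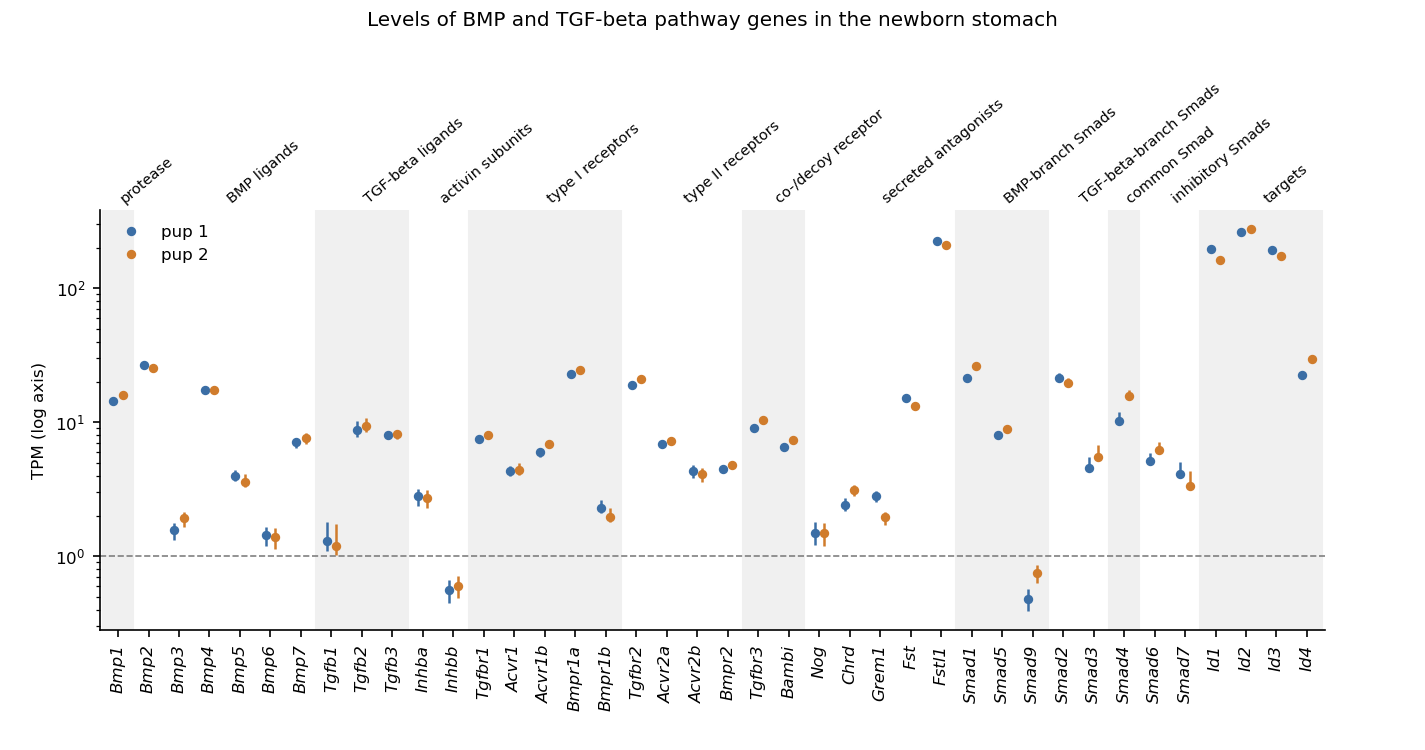
TPM of each of the 40 genes on a log axis, by role, in pup 1 (blue) and pup 2 (orange). Bars are the deposited intervals and the dashed line marks a TPM of 1. Id1, Id2, Id3 and Fstl1 lie above 160 in both pups, and Inhbb and Smad9 below 1.

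When the 38 detected genes were ranked by mean TPM, most neighbours in the order were not separable. Of 37 neighbouring pairs, 4 had intervals apart in both pups and the same order in both: Id2 above Fstl1, Fstl1 above Id3, Id1 above Id4, and Smad4 above Tgfbr3. For the other 33 pairs the order of the means is not a difference beyond the spread.

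Among the BMP ligands, Bmp2 and Bmp4 were the most abundant. Bmp2, a ligand of gut mesenchyme and epithelium, had a TPM of 26.8 (25.6 to 27.3) and 25.2 (24.0 to 25.7), and its 2 intervals overlapped. Bmp4 had a TPM of 17.5 (16.4 to 18.7) and 17.4 (16.2 to 18.8), with almost no spread between pups. Bmp7, a ligand that can pair with either of them, followed with 7.06 and 7.61. Bmp5, a close relative of Bmp7, had 3.99 and 3.59. The lowest ligands were Bmp3, an atypical BMP that can oppose the others, at 1.56 and 1.92, and Bmp6 at 1.43 and 1.38. The annotated length of Bmp3 is 3112 bases in the tables and 6548 in the newer GENCODE M21 (also mm10), and its TPM depends on which is used. Bmp6 shares 224 exonic bases with Txndc5 on the opposite strand, a gene with a TPM of 169 and 167; no source states whether counting used strand, so the level of Bmp6, which rests on 137 and 127 counts, is uncertain. Its length also differs between the annotations (2410 bases in the tables, 3593 in GENCODE M21). Bmp2 held 45.04% ± 1.30 of the summed TPM of the 6 BMP ligands, Bmp4 30.2% ± 0.356 and Bmp7 12.7% ± 0.870. Their sum was 58.4 and 57.1. None of the 6 had intervals apart between pups.

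Bmp1 carries a BMP name but encodes a metalloprotease that processes procollagens and cleaves chordin. Its TPM was 14.4 (13.6 to 14.8) in pup 1 and 16.1 (15.2 to 16.5) in pup 2. The intervals were apart, at a ratio of 1.12.

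Of the TGF-beta ligands, Tgfb2 and Tgfb3 were both present at several times the level of Tgfb1. Tgfb2 had a TPM of 8.76 and 9.36, Tgfb3 of 8.05 and 8.14, and Tgfb1, the isoform best known from immune cells and platelets, of 1.29 and 1.19. The share of the summed TPM was 49.2% ± 1.19 for Tgfb2, 44.0% ± 0.652 for Tgfb3 and 6.75% ± 0.537 for Tgfb1, which lay at percentile 1.48 of the detected protein-coding genes with 102 and 92 counts. The intervals of Tgfb2 (7.80 to 10.2 in pup 1) and Tgfb3 (7.47 to 8.41) overlapped, so Tgfb2 and Tgfb3 were not told apart. Inhba, the activin A subunit, had 2.80 and 2.73, and Inhbb, the activin B subunit, 0.56 and 0.60.

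**Figure D2:**
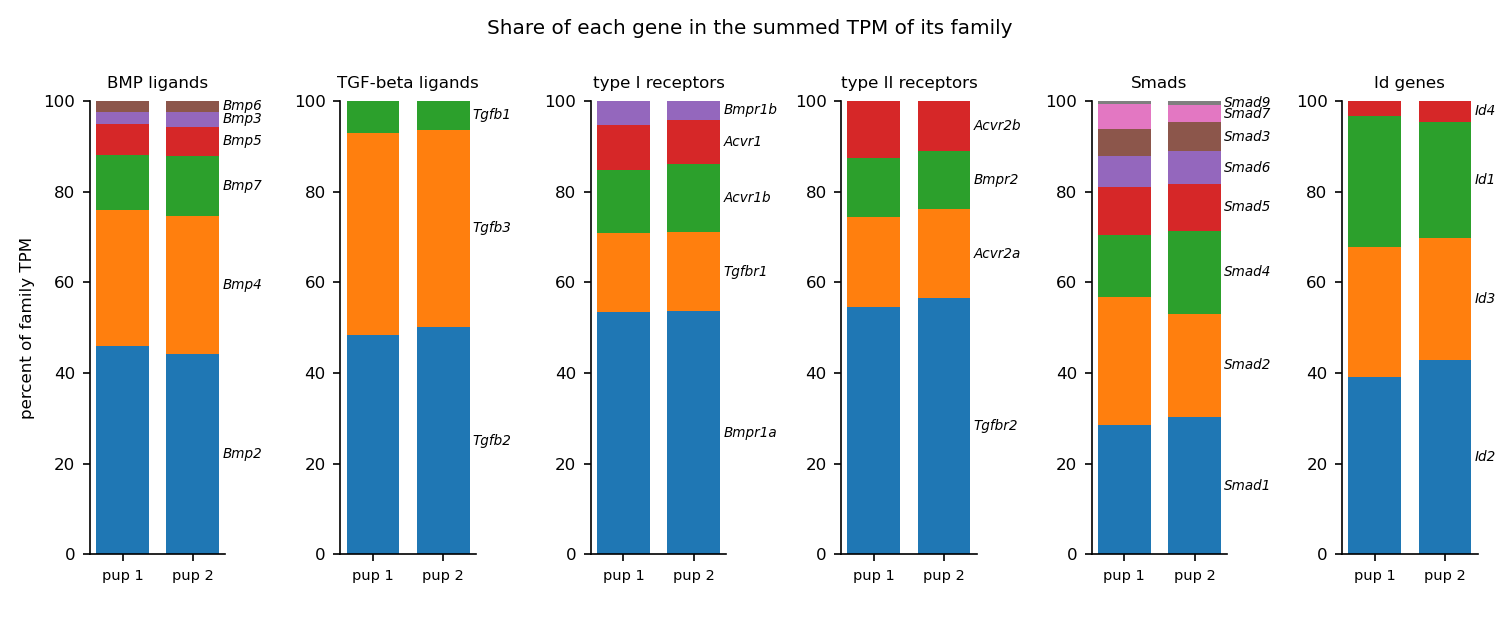
Percent of the summed TPM of 6 families held by each gene, 1 bar per pup. Bmp2, Tgfb2, Bmpr1a, Tgfbr2, Smad1 and Id2 hold the largest share of their family on average. The bars of the pups differ most among the Smads. There Smad2 goes from 28.3% in pup 1 to 22.8% in pup 2, and Smad4 from 13.6% to 18.3%. Among the Id genes, Id2 goes from 39.0% to 42.9% and Id1 from 29.0% to 25.5%.

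One BMP receptor and one TGF-beta receptor led the receptor families. Bmpr1a, the main type I receptor for BMP2 and BMP4, had a TPM of 23.0 (22.1 to 23.8) and 24.7 (23.6 to 25.5), and held 53.5% ± 0.0703 of the summed TPM of the 5 type I receptors. Tgfbr1, the type I receptor of the TGF-betas, had 7.46 and 8.05. Acvr1b, which serves activins, had 5.96 (5.53 to 6.23) and 6.92 (6.44 to 7.21); it was the only type I receptor with intervals apart. Acvr1, which binds BMP7-class ligands, had 4.31 and 4.42. Bmpr1b, known from cartilage, was lowest of the 5 at 2.28 and 1.96. Of these 5, the receptors of the BMP branch (Acvr1, Bmpr1a and Bmpr1b) summed to 29.6 and 31.0. Those of the TGF-beta and activin branch (Tgfbr1 and Acvr1b) summed to 13.4 and 14.97. The list leaves out the type I receptors Acvrl1, at 12.8 and 11.4, and Acvr1c, at 1.34 in each pup. Neither is in these sums or in the share of Bmpr1a, and Acvrl1 lay above Tgfbr1.

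On the type II side, Tgfbr2, the ligand-binding receptor of the TGF-betas, had a TPM of 18.9 (18.005 to 19.2) and 21.1 (20.1 to 21.4), a ratio of 1.12 with intervals apart. It held 55.6% ± 1.40 of the summed TPM of the 4 type II receptors. Its transcripts Tgfbr2-201 and Tgfbr2-202 are 4710 and 4785 bases long in the tables and 3476 and 8092 in GENCODE M21, so its level and the split between them depend on the annotation. The other type II receptors were lower. Of the pair shared by activins and BMPs, Acvr2a had 6.84 and 7.26 and Acvr2b had 4.36 and 4.08. Bmpr2, the BMP type II receptor, had 4.50 and 4.82. Acvr2a shares 446 exonic bases with the more abundant Orc4 on the opposite strand (TPM 46.3 and 47.3). Bmpr1a, at 23.8 ± 1.16, lay above Tgfbr2, at 19.96 ± 1.54, with separate intervals in each pup. Tgfbr3 (betaglycan), which presents TGF-beta2 to its receptors, had 9.11 (8.68 to 9.61) and 10.3 (9.75 to 11.0), and Bambi, a decoy without a kinase, had 6.51 (6.08 to 6.77) and 7.38 (6.92 to 7.66). Both had intervals apart, at a ratio of 1.13 each, but not when intervals were computed from counts alone.

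The classical BMP antagonists were scarce next to their ligands. Nog (noggin) had a TPM of 1.5 and 1.48 on 99 and 94 counts. Chrd (chordin) had 2.42 (2.17 to 2.70) and 3.12 (2.80 to 3.42), higher in pup 2 at a ratio of 1.29 with intervals apart. Grem1 (gremlin 1), secreted by gut smooth muscle and fibroblasts, had 2.83 (2.55 to 3.05) and 1.95 (1.72 to 2.14), lower in pup 2 at a ratio of 0.689, the smallest of the 40 genes, on 474 and 313 counts. The sum of these 3 genes was 6.75 and 6.55, against 58.4 and 57.1 for the BMP ligands. Fst (follistatin), which binds activins, had 15.1 (14.1 to 15.7) and 13.3 (12.4 to 13.9), several times the level of Inhba; its transcript is 2337 bases long in the tables and 1851 in GENCODE M21. Fstl1, a secreted follistatin-like glycoprotein of mesenchymal cells, had 225 (217 to 228) and 209.9 (203 to 212). Grem1, Fst and Fstl1 were all lower in pup 2 with intervals apart, while Chrd was higher.

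The 8 Smads summed to a TPM of 75.5 and 86.1. Smad1, the leading Smad of the BMP branch, had 21.5 (20.4 to 22.0) and 26.1 (24.8 to 26.6), a ratio of 1.21 with intervals apart. Smad5 had 8.07 and 8.84. Smad9 was the lowest receptor-activated Smad, at 0.48 (0.390 to 0.570) and 0.75 (0.629 to 0.860), with the largest ratio of the 40 genes, 1.56. In the TGF-beta branch, Smad2 had 21.3 (20.3 to 23.3) and 19.6 (18.8 to 21.5), and Smad3 had 4.56 and 5.49. So each branch had 1 abundant Smad. Smad1 and Smad2 held 28.5% and 28.3% of the summed Smad TPM in pup 1 and 30.3% and 22.8% in pup 2. The main transcript of Smad2 is 2857 bases long in the deposited tables and 8089 in GENCODE M21, so its TPM, and its distance to Smad3, depend on the annotation.

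Smad4, the partner shared by both branches, stood at 10.3 TPM (10.04 to 11.97) in pup 1 against 15.8 (15.3 to 17.4) in pup 2, on 1395 and 2056 counts. The intervals were apart and the ratio was 1.53. Of the inhibitory Smads, Smad6, which acts mainly on the BMP branch, had 5.12 (4.77 to 5.90) and 6.25 (5.85 to 7.08), and Smad7, which acts on both branches, had 4.14 (4.01 to 5.005) and 3.34 (3.26 to 4.31). Both pairs of gene intervals overlapped, with opposite directions of the point estimates. The transcripts Smad6-201 and Smad7-201 held all of the TPM of their genes in each pup, and their own intervals were apart. These were 4.65 to 5.45 and 5.71 to 6.61 for Smad6-201, and 3.73 to 4.34 and 2.96 to 3.51 for Smad7-201. The gene intervals of Smad3 overlapped too, while those of Smad3-201 were apart (3.98 to 4.53 and 4.90 to 5.54). Those of Smad2-205 and Smad5-201 overlapped.

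The receptor-activated Smads and the inhibitory Smads differ at the end of the protein, where type I receptors phosphorylate serines. The last 45 coding bases before the stop codon (15 codons) are shown for the Smads that can be printed, from the GENCODE M21 transcripts on the same assembly, with serine codons in capitals. Smad1 (chr8:79339652-79339696, minus strand), Smad5 (chr13:56737431-56737475, plus), Smad9 (chr3:54797454-54797498, plus), Smad3 (chr9:63650265-63650309, minus) and Smad6 (chr9:63953527-63953571, minus) each end in the last coding exon of their main transcript.
Smad1: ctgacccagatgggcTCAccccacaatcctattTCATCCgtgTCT
Smad5: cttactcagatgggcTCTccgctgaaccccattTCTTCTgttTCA
Smad9: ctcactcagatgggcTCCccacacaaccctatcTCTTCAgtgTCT
Smad3: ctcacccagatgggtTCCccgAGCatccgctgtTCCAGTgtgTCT
Smad6: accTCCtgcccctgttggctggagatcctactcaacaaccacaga
In Smad1, Smad5, Smad9 and Smad3, 3 of the last 4 codons encode serine, and in Smad6 none does. The 4 receptor-activated genes thus share this ending, while their levels ran from a mean TPM of 0.615 ± 0.191 for Smad9 to 23.8 ± 3.25 for Smad1.

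The Id genes, transcribed in response to BMP signals and to other signals too, were the most abundant group of the list. Id2 (chr12:25093799-25097140) had a TPM of 263 (255 to 264) and 275 (267 to 276). Id3 (chr4:136143497-136145755) had 193 (186 to 195) and 173 (166 to 174), and Id1 (chr2:152736251-152737410) had 195 (188 to 197) and 164 (157 to 166). These 3 lay at percentiles 96.2, 94.5 and 94.4 of the detected protein-coding genes. Id4 (chr13:48261228-48266026), the family member best known from the nervous system, was far below them at 22.4 (20.97 to 23.3) and 29.8 (28.0 to 30.7). All 4 had intervals apart between the pups, but not in one direction: Id1 and Id3 were lower in pup 2, at ratios of 0.838 and 0.895, and Id2 and Id4 were higher, at ratios of 1.05 and 1.33. The intervals of Id2 overlapped when computed from counts alone. The share of Id2 in the family was accordingly 39.0% in pup 1 and 42.9% in pup 2. The annotated length of the Id4 transcript is 1660 bases in the deposited tables and 3849 bases in GENCODE M21, so its TPM depends on the annotation more than that of the other Id genes, whose lengths are the same in both.

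**Figure D3:**
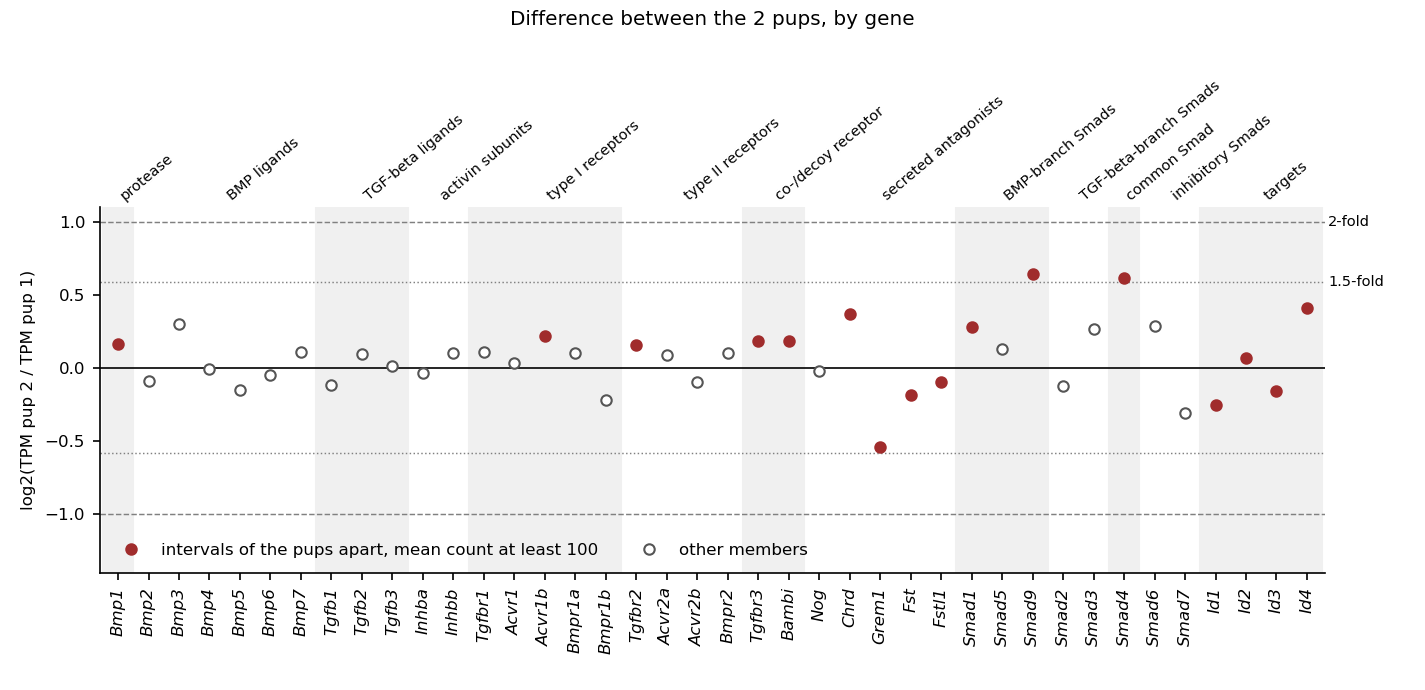
log2 of the TPM of pup 2 over the TPM of pup 1, without a pseudocount, for each of the 40 genes, by role. Filled points have intervals of the pups apart and a mean count of at least 100; dotted and dashed lines mark 1.5-fold and 2-fold. Smad9 and Smad4 lie above the upper 1.5-fold line, no point passes 2-fold, and Grem1 is the lowest point.

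No ratio between the littermates reached 2-fold in the list, but intervals were apart more often than among all genes. By the call rule (intervals apart, at least 2-fold, mean expected count of at least 100), 0 of the 37 genes with that count differed, beside 0.423% of the 13951 genes tested in the whole tables (0.301% higher and 0.122% lower in pup 2). At 1.5-fold, 2 did (5.41%), Smad4 and Smad9, both higher in pup 2, beside 1.63% of all genes (1.08% higher and 0.552% lower). Smad4 stayed just under 1.5-fold with posterior mean TPM (1.49), TMM scaling (1.494) and DESeq2 scaling (1.492), which leaves Smad9 alone past it (1.54, 1.516 and 1.513). Smad9 itself lay below 1 TPM in both pups, on 105 and 157 counts. With no fold limit, 16 of 37 (43.2%) had intervals apart, beside 21.2% of all genes. Of these, 11 were higher in pup 2 (29.7% of the 37, beside 12.9% of all genes) and 5 were lower (13.5%, beside 8.33%). Intervals are narrow for genes with many reads. At a mean count of at least 1000, 13 of 23 genes of the list (56.5%) had intervals apart, beside 28.9% of 7855 genes. The ratio was within 1.2-fold for 30 of the 40 genes (75%), beside 84.8% of the detected protein-coding genes, and ran from 0.689 for Grem1 to 1.56 for Smad9. The median log2((TPM of pup 2 + 1)/(TPM of pup 1 + 1)) was 0.07 over the 38 genes with a mean TPM of at least 1, beside 0.03 for 13339 protein-coding genes. It was 0.01 with TMM scaling and 0.00 with DESeq2 size factors, so the list as a whole had no shift that held under every scaling.

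The 16 genes with intervals apart came from several roles. Bmp1 was higher in pup 2. Receptors, co-receptor and decoy gave 4 genes with intervals apart, Acvr1b, Tgfbr2, Tgfbr3 and Bambi, all higher in pup 2. The Smads gave 3, Smad1, Smad9 and Smad4, also all higher. With Poisson intervals from counts, 7 of the 8 Smads were apart, among them Smad2 and Smad7, which were lower in pup 2. The share of all genes apart with Poisson intervals was not computed, so this count has no background to set it beside. The antagonists with Fstl1 gave 1 higher and 3 lower, and the Id genes 2 and 2. No ligand had intervals apart. The direction of all 16 was the same with TMM scaling, DESeq2 scaling, posterior mean TPM and a smaller pseudocount. Markers of other cell types moved between the same libraries. Of 17 marker lists, 7 had every marker higher in pup 2, 3 had every marker lower and 7 were mixed. All 4 smooth muscle markers were lower in pup 2 (Acta2, Actg2, Myh11 and Tagln, a summed TPM of 7622 and 6157), as were Grem1, Fst and Fstl1. Of the 4 fibroblast markers, 2 were higher and 2 lower (2305 and 2284). All 4 squamous markers were higher in pup 2 (6701 and 7378), and all 5 liver markers too (125 and 190), while the endothelial markers were split 2 and 2 (73.4 and 76.8). The other lists with every marker lower were intestine (a summed TPM of 23.2 and 15.6) and pancreas (41.5 and 34.2). The others with every marker higher were parietal (1210 and 1443), chief (61198 and 66341), erythroid (700.1 and 881.5), skeletal muscle (64.4 and 69.8) and lung, whose markers were not detected. Mesothelium was mixed (91.1 and 74.3), as were surface mucous, stomach mesenchyme, macrophage and platelet markers. The lung markers Sftpb and Nkx2-1 were at 0 in pup 1, and no other marker was at 0. The part of these cell types in the differences above was not tested.

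The leading transcript of each gene was compared between the pups. Of the 40 genes, 14 had 1 transcript in the tables and 26 had several. Among genes with at least 2 transcripts and 5 TPM or more in each pup, the same transcript led in both pups for 16 of 16, beside 93.7% of 7078 protein-coding genes, and the leading transcript held a median of 93.4% of the TPM, beside 73.3%. A gene below that level differed: Acvr2b-201 and Acvr2b-202 held 49.5% and 50.5% in pup 1 and 58.9% and 41.1% in pup 2. Their TPM intervals were 1.29 to 3.06 and 1.26 to 3.06 in pup 1. In pup 2 these were 1.64 to 3.16 and 0.928 to 2.45. The intervals of both transcripts overlapped in each pup, so which one led was not settled.

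**Figure D4:**
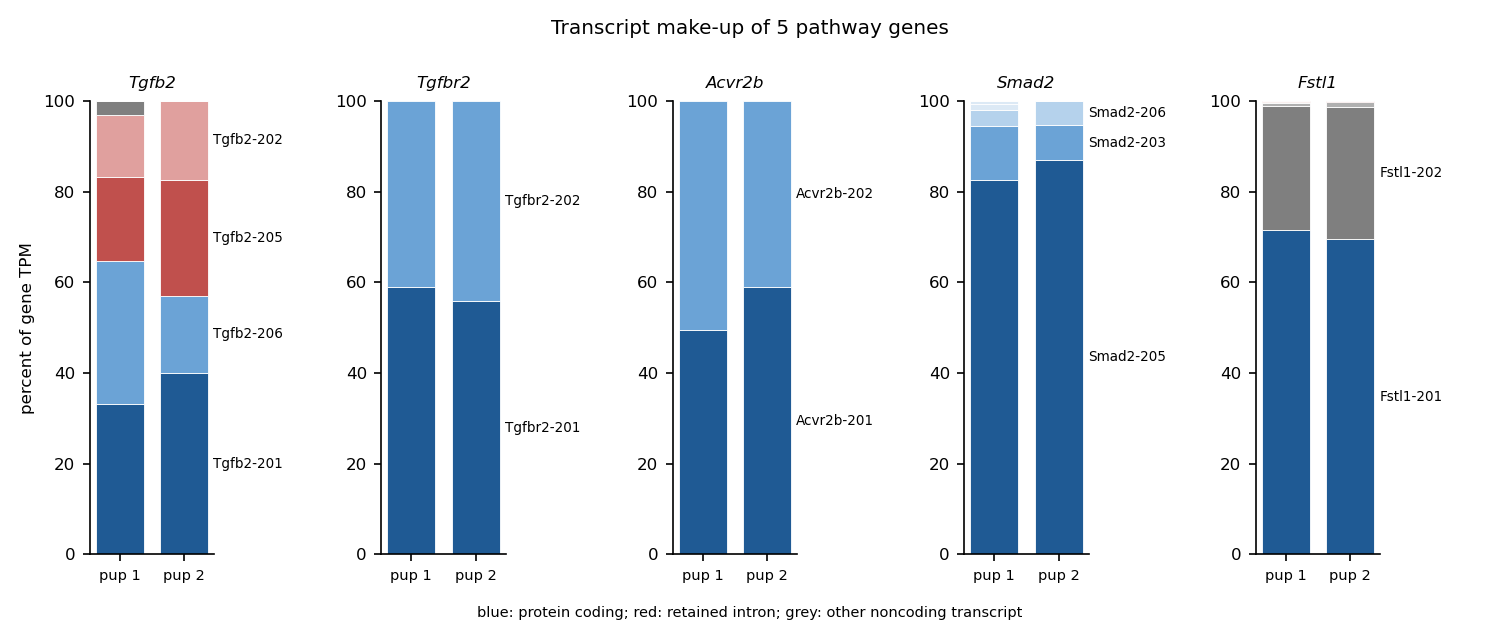
Percent of the TPM of 5 genes held by each annotated transcript, 1 bar per pup, with protein-coding transcripts in blue, retained-intron transcripts in red and other noncoding ones in grey. Tgfb2 is spread over 4 main transcripts, Tgfbr2 and Acvr2b over 2 coding ones each, and Fstl1-202, a noncoding transcript, holds 27.4% and 29.0% of Fstl1.

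In 3 genes that can be printed, 2 coding transcripts shared the expression and differed by a stretch whose length is a multiple of 3, so the reading frame goes on after it. The stretches are shown because they are the whole coding difference between the transcripts compared. Tgfb2-206 has an exon of 84 bases (28 codons) at chr1:186690721-186690804, minus strand, that Tgfb2-201 lacks. Tgfbr2-202 has an exon of 75 bases (25 codons) at chr9:116158271-116158345, minus strand, that Tgfbr2-201 lacks; it encodes an insert in the extracellular part of the receptor. Acvr2b-202 has 24 more coding bases (8 codons) of an exon at chr9:119428201-119428224, plus strand, than Acvr2b-201. The deposited length of the whole transcript is 1696 bases for Acvr2b-202 and 1729 for Acvr2b-201. In GENCODE M21, Acvr2b-202 has 2093 bases, so the split between these transcripts depends on the annotation.
Tgfb2-206: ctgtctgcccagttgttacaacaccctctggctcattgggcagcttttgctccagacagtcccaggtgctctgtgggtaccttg
Tgfbr2-202: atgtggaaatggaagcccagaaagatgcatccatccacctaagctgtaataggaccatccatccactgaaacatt
Acvr2b-202: tcacgtacgagccacccccgacag
The longer receptor transcript Tgfbr2-202 held 41.1% of Tgfbr2 in pup 1 and 44.1% in pup 2, so both forms were abundant. Tgfb2-206 held 31.4% and 16.9% of Tgfb2, at a TPM of 2.76 (2.10 to 3.35) and 1.58 (0.919 to 2.12); these intervals overlapped. Smad2 showed the opposite balance. Its transcript with the 90-base exon (30 codons) that weakens DNA binding, Smad2-205, held 82.5% and 86.9%, and the shorter Smad2-203 held 11.95% and 7.65%. With posterior mean TPM the share of Smad2-203 was 6.97% and 4.73%, and its interval in pup 2 ran from 0.00016 to 1.90 TPM, so the presence of this form there is uncertain.

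Noncoding transcripts took up part of the TPM of some genes. Retained-intron transcripts held 32.2% and 43.1% of Tgfb2, 11.9% and 18.1% of Bmp7, and 7.80% and 13.5% of Bmp4. Few counts lay behind them: 53.5 and 76.1 for Tgfb2-205, and 32.05 and 41.9 for Tgfb2-202. Bmp7-202 had 30.5 and 48.3 counts, and Bmp4-203 had 23.6 and 39.0. For each of these transcripts the TPM intervals of the pups overlapped, and that of Tgfb2-205 in pup 1 ran from 0.198 to 2.68. Retained-intron transcripts were annotated for 10 of the 40 genes. The median over the 7 of these at a gene TPM of 5 or more in each pup was 5.31% and 5.56%, beside 4.44% and 4.83% for 4039 protein-coding genes at that level. The part of unspliced RNA in these shares was not tested. Counting protein-coding transcripts alone, Tgfb2 had a TPM of 5.50 ± 0.240, which is 60.7% of its gene level, and Tgfb3, with all its TPM in a coding transcript, then had the higher level at 8.10 ± 0.0636. Fstl1 had 153 ± 10.4, or 70.6% of its gene level. The noncoding Fstl1-202 ends in an exon that lies within the 3′ UTR of Fstl1-201, so reads of that stretch are divided between both by the quantification.

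Promoter sequence was searched for 3 short motifs reported for Smad proteins: GGCGCC, a GC-rich element of BMP Smads; GTCTAGAC, the palindromic Smad-binding element; and CAGAC, a shorter Smad-bound sequence. RefSeq windows (GRCm38.p6) from 250 bases before to 50 after the start were given for 27 of the 40 genes, and both strands were searched; none of the 3 motifs contains another. GGCGCC was in 10 of the 27 (37%), namely Acvr1b, Bmpr1a, Bmpr2, Chrd, Grem1, Id2, Id4, Smad5, Smad9 and Tgfbr1, beside 13.4% of all 27025 genes with a window (11.9% of 32851 windows). GTCTAGAC was in 1, Smad6, beside 0.248% of genes (0.213% of windows). CAGAC was in 12 (44.4%), beside 53.2% of genes (49.6% of windows). A match is a description of the letters and not a site, and the shares were not matched on base composition.

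The 250 bases before the start are shown for Id4 and Grem1, the target and the antagonist whose pups lay furthest apart, with GGCGCC and CAGAC (or its reverse complement GTCTG) in capitals. The Id4 stretch is chr13:48260866-48261115, plus strand, and the Grem1 stretch is chr2:113758649-113758898, minus strand.
Id4: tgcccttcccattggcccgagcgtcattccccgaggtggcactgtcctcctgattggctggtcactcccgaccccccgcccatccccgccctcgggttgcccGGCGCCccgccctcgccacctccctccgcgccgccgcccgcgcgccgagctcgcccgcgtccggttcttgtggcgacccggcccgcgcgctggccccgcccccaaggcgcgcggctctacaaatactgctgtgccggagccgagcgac
Grem1: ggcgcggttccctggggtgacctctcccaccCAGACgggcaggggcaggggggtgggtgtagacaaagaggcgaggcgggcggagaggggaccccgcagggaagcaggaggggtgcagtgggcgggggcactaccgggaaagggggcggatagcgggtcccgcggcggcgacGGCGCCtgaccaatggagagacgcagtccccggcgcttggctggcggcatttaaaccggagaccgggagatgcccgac
The Id4 stretch is 75.6% G or C with 35 CpG and 1 GGCGCC, and the Grem1 stretch is 72% with 24 CpG, 1 GGCGCC and 1 CAGAC. In these libraries Id4 was higher and Grem1 lower in pup 2. Both genes were picked for their difference between pups, and a relation of that difference to GGCGCC was not tested.

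Other genes of the pathway, from 6 lists that hold no gene of the 40, filled in the rest of the system. Of 80 genes listed, 79 were found in the tables (Gdf1 is not analysed here), 52 were detected in both pups, and their median TPM was 3.74. Among the 52 with a mean count of at least 100, 19 had intervals apart by the same rule (36.5%, beside 21.2% of all genes), 11 of them higher in pup 2 (beside 12.9%) and 8 lower (beside 8.33%). At 1.5-fold 2 of the 52 passed, beside 1.63%, and at 2-fold 0, beside 0.423%.

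**Figure D5:**
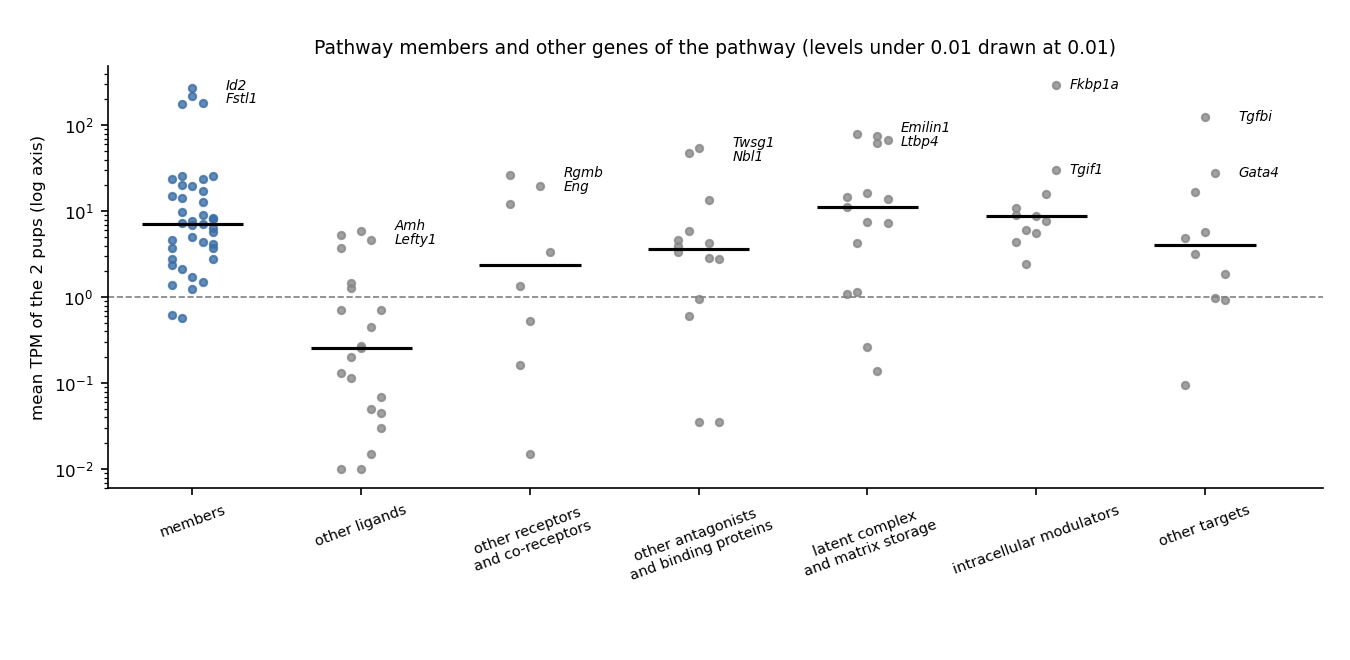
Mean TPM of both pups (log axis) of the 40 genes of the list and of the 6 lists of other pathway genes, 1 point per gene, with the median as a bar and a TPM of 1 as a dashed line. The other ligands have the lowest median, 0.255, and the latent complex and matrix genes the highest, 11.1.

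Most of the other ligands lay below 1 TPM: 6 of 21 were detected, with a median TPM of 0.255. The highest were Amh, anti-Muellerian hormone, at 5.82 and 5.91, and Lefty1, a Nodal antagonist, at 5.26 in each pup, and Bmp10 had 0 counts in both pups, where a count of 0 allows up to 3 counts, or a CPM of 0.0582 and 0.0600. Of the other receptors and co-receptors, 5 of 8 were detected, led by Rgmb, a BMP co-receptor, at 24.6 and 29.0, and Eng, the endothelial co-receptor endoglin, at 19.8 and 20.0. Among other antagonists and binding proteins, 10 of 14 were detected. Twsg1, which acts with chordin, had 52.5 and 56.8 and Nbl1, a DAN-family antagonist, 46.0 and 50.6, both far above Nog, Chrd and Grem1. Kcp, a chordin-like protein, had 3.25 and 5.21, a ratio of 1.603 with intervals apart.

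The latent complex and matrix genes were the most highly expressed of these lists by median (11.1), with 13 of 15 detected. Some of their products store TGF-beta outside cells or release it, but not all, and Pcolce, Tll1 and Tll2 are also in the list. Emilin1, which restrains TGF-beta precursor processing, had a TPM of 74.3 and 83.8, and Ltbp4, a latent TGF-beta binding protein, 68.7 and 80.5. Lrrc32, which tethers latent TGF-beta to the cell surface, had 3.20 and 5.36, the larger of the 2 differences past 1.5-fold at a ratio of 1.68. All 11 intracellular modulators were detected, led by Fkbp1a, which binds type I receptors and other proteins, at 308 and 279, and Tgif1, a Smad corepressor, at 30.5 and 29.8. Of the other targets, 7 of 10 were detected, with Tgfbi, a matrix protein named for its induction by TGF-beta, at 128 and 121 and Gata4, a transcription factor of the foregut, at 23.8 and 31.9.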

How the data were processed

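The authors deposited a gene and a transcript table per library on mm10 with GENCODE M4, per the labels and the accompanying text files. The aligner, quantifier and strand setting were not given in the sources used here. Deposited expected counts are estimated reads with shared reads divided, unscaled for depth. The TPM and FPKM values were scaled by the authors per length and per library total, the deposited bounds of TPM (unit here: signal) are credibility intervals, and the deposited isoform share is a percent of gene TPM. Gene symbols and coordinates were taken from GENCODE M21, matched on ID (42462 genes matched, 884 not). Spike-ins and tRNA entries together held 0.000536% of counts in pup 1 and 0.000755% in pup 2. A call between pups required intervals apart, a 2-fold difference and a mean count of at least 100. Log ratios in the medians used a pseudocount of 1; single ratios and the plot of ratios by gene used none. Scaling alternatives used edgeR 4.0.16 (TMM) and DESeq2 1.42.0 on rounded expected counts after filterByExpr (17904 genes). The call rule was run on simulated Poisson counts, with intervals computed from those counts. That run held no read assignment and no differences between animals, so it did not check the rule on the deposited intervals. All 40 genes are accounted for, ordered by role. Per-pup values are given for those at a mean TPM of at least 1, and values and counts below it. Of each list of other genes the 2 highest were named. Any past the fold limits with intervals apart and a mean count of at least 100 were named too. Genes past the fold limits below that count were not. Acvrl1 and Acvr1c were added beside the type I receptors. The genes and lists were chosen with earlier results of these data known. Replicates are 2 littermates, so no p was computed, and the spread may be partly technical. Alternatives covered the detection limit, the fold limit, the unit, the scaling and leaving out each pup.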

Additional observations from a re-analysis of the deposited data

How the results depend on the processing

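No paired analysis was possible because there is 1 group. Counts moved with the thresholds that define them: 24 genes were detected at a TPM of at least 5, and 2 differed between pups at 1.5-fold, 16 with no fold limit and 18 with exact Poisson intervals on TMM-scaled counts and no fold limit, an alternative chosen after seeing the data. At 1.5-fold 1 gene, Smad9, was left with posterior mean TPM, with TMM and with DESeq2 scaling, also added after seeing the data. The Poisson intervals lost Tgfbr3, Bambi and Id2 and gained Bmp2, Smad2, Smad3, Smad6 and Smad7. The share of all genes apart with Poisson intervals was not computed. The median level was 5.74 in FPKM and 6.69 in TPM of protein-coding transcripts only, also chosen after seeing the data. At a gene TPM of at least 1, 25 of 26 genes kept 1 main transcript. The share of Bmpr1a was 53.3% with posterior mean TPM. With either pup left out, 38 genes were detected, the median level was 6.95 to 7.50, and the shares were 44.1% to 46.0% (Bmp2), 48.4% to 50.1% (Tgfb2), 53.5% to 53.6% (Bmpr1a), 54.6% to 56.6% (Tgfbr2), 28.5% to 30.3% (Smad1) and 39.0% to 42.9% (Id2). The median log2 ratio was 0.00 to 0.10 over its alternatives. Depth limits Tgfb1, Nog and Inhbb, with about 100 counts each, and also Smad9 (105 and 157) and Bmp6 (137 and 127).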
